A study of Drosophila melanogaster with 2 samples.

Results

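Peak calls on unplaced scaffolds are the rows of the 8 deposited lists whose sequence is none of the 7 main chromosomes 2L, 2R, 3L, 3R, 4, X and Y of the Drosophila melanogaster build dm6. They were chosen by sequence name alone, and they number 9036 of 586032 rows over the 8 lists, where 1 locus can appear in several lists. The lists come from chromatin immunoprecipitation and sequencing of whole embryos aged 8 to 24 h. The embryos belong to the transgenic strain nerfin-2-GFP, whose insertion expresses a nerfin-2-eGFP fusion, and an anti-GFP antibody was used on sonicated chromatin. Both samples, replicates 1 and 2, carry the insertion and form the only group, and their sex was not recorded. The labels refer to a control experiment, which is not analysed here. No value is therefore set against an input, and no test between groups could be made. The lists do not give the sequencing depth. There are 4 ranked lists, which hold all calls of the peak caller that were scored for reproducibility, and 4 thresholded lists with the calls kept from them. The authors made 2 thresholded lists across both replicates, 1 of which they named conservative, and a list from each replicate alone. Each is set beside the ranked list that holds all of its calls. The signal is the peak caller's value for a call as deposited. Signals of lists made from both replicates run higher than those of 1 replicate and are compared here only within a list or between the replicates.

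Nerfin-2 is a zinc finger protein of the nervous system. Unplaced scaffolds are stretches of the assembly whose position on a chromosome is not known, and most come from heterochromatin, the compacted DNA around centromeres and on the Y. That DNA is built of satellites, which are short units repeated in tandem, and of transposable elements, with few genes. A short read from such a repeat can match many places equally well, so calls on different copies are not independent. The lists and labels used here do not say how such reads were placed.

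The unplaced calls kept in the thresholded lists were all on scaffolds assigned to the X. Calls of as high a score on other unplaced scaffolds were not kept. On the X scaffolds 1 tandem repeat makes up 53.7% of known bases. The kept calls fell mainly on that repeat, and its sequence is shown here for that reason. It was read, like all sequences below, from the RefSeq copy of the same assembly. The first line is the whole call with the highest signal of the 3 in the conservative thresholded list, with bases 41 to 100 of the repeat unit in capitals. The next 5 lines give the same stretch in the other calls on this repeat that were thresholded in 2 or more lists, in the orientation of the first, with bases that differ from it or are added to it in capitals and missing bases closed up.
chrX_DS484669v1_random:1-291, strand +: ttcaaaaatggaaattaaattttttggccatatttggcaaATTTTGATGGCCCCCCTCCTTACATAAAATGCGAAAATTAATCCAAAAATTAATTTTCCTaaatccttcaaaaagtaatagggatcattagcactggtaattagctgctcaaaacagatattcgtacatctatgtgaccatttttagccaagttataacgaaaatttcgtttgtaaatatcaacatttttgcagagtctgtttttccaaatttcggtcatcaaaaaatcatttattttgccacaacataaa
chrX_DS484609v1_random:286-345, strand -: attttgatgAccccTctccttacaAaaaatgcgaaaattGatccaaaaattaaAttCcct
chrX_DS484580v1_random:778-836, strand -: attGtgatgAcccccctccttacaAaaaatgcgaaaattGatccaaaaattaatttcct
chrX_DS484367v1_random:759-822, strand -: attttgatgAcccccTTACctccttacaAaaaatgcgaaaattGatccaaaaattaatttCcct
chrX_DS484690v1_random:304-363, strand -: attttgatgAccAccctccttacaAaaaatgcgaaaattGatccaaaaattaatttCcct
chrX_DS483969v1_random:837-896, strand -: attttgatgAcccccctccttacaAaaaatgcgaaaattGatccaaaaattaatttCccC
In 18 of the 21 thresholded loci on this repeat the stretch lay inside the call. The median identity to the first line, which is counted among the 18, was 91.7%, and the lowest was 85.0%. Counting from 1 at the first base of the unit, G50A occurred in all 17 of the other loci, T65A and A80G in 16 each and T97C in 12. At base 50 the first line therefore differs from all of the others.

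The repeat was recognised by its period. Of 388 scaffolds assigned to the X with a ranked call in any list, 208 matched themselves at more than 50% of bases after a shift of 50 to 500 bp. The commonest shift was 359 bp, in 96 of the 208, and 193 lay within 5 bp of it. This is the length of the 359-bp satellite, a block of tandem DNA next to the X centromere. Searched with the 359 bases from the start of the strongest call, the repeat made up 53.7% of the known bases of the X scaffolds and 12.3% of those of all unplaced scaffolds. No base of the Y scaffolds matched it. Near full-length units on X scaffolds numbered 1076 at a median identity of 94.7%. On the other unplaced scaffolds 364 such units matched at a median of 83.0%. Such units on the main chromosomes were also diverged, with 366 on the X at a median of 69.1% and 238 on 3L at 82.9%. None there exceeded 86.9%.

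The scaffolds were read in the same way for a shorter period, since calls on the scaffolds assigned to 3CEN, the centromeric part of chromosome 3, were rich in G and C. Of 356 such calls outside the long repeat and outside transposable elements, 332 matched themselves after a short shift, which was 11 bp in 240 and 12 bp in 59. The same number, 332, held the word CCCGTACTGGT on 1 strand or the other. This is the dodeca satellite, a repeat of chromosome 3 heterochromatin. The next line gives 120 bases at the summit of the strongest call on it, with the letters CCCGTACT in capitals.
chrUn_DS484998v1:1086-1205, strand +: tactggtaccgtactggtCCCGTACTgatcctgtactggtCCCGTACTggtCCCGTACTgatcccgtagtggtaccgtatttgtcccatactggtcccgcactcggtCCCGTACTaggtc
Spans of this short repeat covered 39.1% of the known bases of the 3CEN scaffolds. On the main chromosomes 156782 of its 156816 bases lie on 3R.

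In the ranked list behind the conservative list, 2802 of 151811 calls were on unplaced scaffolds, a share of 1.85% (95% Wilson interval 1.78 to 1.91). The second ranked list across replicates held 2849 of 156540. Replicate 1 alone held 1257 of 130121, or 0.966% (0.914 to 1.02), and replicate 2 alone 2092 of 137082, or 1.53% (1.46 to 1.59). The calls lay on 1003 scaffolds in the conservative ranked list, on 636 in replicate 1 and on 865 in replicate 2, of 1862 unplaced scaffolds in the assembly. Replicate 2 therefore had 1.66 times as many calls as replicate 1 on unplaced scaffolds, against 1.05 times on the main chromosomes together, and on the X scaffolds the ratio was 1.77. The placed Y, with 344 calls in replicate 2 and 220 in replicate 1, had a ratio of 1.56, as did the Y scaffolds with 238 and 153. Chromosome 4 went the other way, with 506 calls in replicate 2 and 874 in replicate 1, a ratio of 0.579. Of the 1160 scaffolds with a call in any ranked list, 607 had more calls in replicate 2, 196 had more in replicate 1 and 357 had equal numbers. Intervals here and below cover counting error only.

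Per 100 kb of known bases, the unplaced scaffolds held 51.0 conservative ranked calls and the main chromosomes 108.7. The X scaffolds were densest at 85.3, followed by 3CEN at 65.6, Y at 43.3, scaffolds assigned to X or Y at 41.2, those of unknown chromosome at 39.8 and 2CEN, the centromeric part of chromosome 2, at 28.3. Replicate 1 gave 43.8 on the X scaffolds and 31.4 on 3CEN, and replicate 2 gave 77.6 and 44.9. X came first and 3CEN second in each replicate, and 2CEN came last. The Y scaffolds, at 43.3, were denser than the placed Y, at 20.6, and the X scaffolds were less dense than the placed X, at 116.2.

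**Figure D1:**
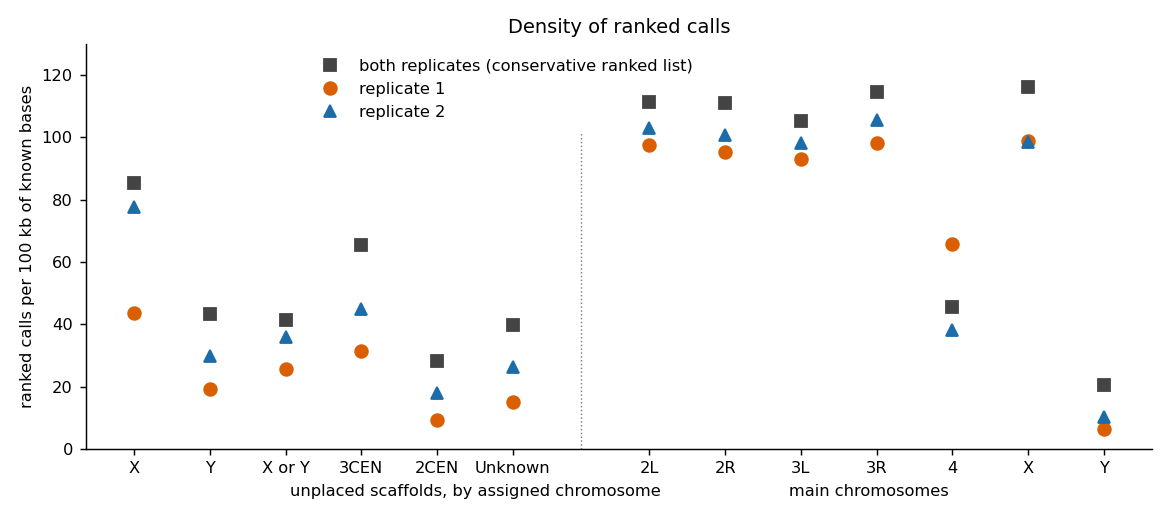
Ranked calls per 100 kb of known bases (vertical axis) on unplaced scaffolds by the chromosome RefSeq assigns them to (left) and on the main chromosomes (right), with 1 symbol per list. Replicate 2 lies above replicate 1 for all 6 scaffold groups, at 77.6 against 43.8 on X, while on the placed X the replicates lie at 98.7 for replicate 1 and 98.5 for replicate 2.

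The deposited signal of the unplaced calls was low. Its median was 11.6 on unplaced scaffolds and 22.5 on the main chromosomes in the conservative ranked list, 8.57 and 13.9 in replicate 1, and 9.77 and 13.1 in replicate 2. The highest unplaced signal, 146.3, was far below the highest of the main chromosomes, 1243. By assigned chromosome the medians in the conservative ranked list were 14.4 on X, 13.1 on X or Y and 12.7 on 3CEN. They were 10.3 on Y, and 9.80 on both 2CEN and unknown scaffolds. On X scaffolds 27.5% of its calls (24.6 to 30.8) exceeded the main chromosomes' median. On scaffolds of unknown chromosome 11.3% did (9.51 to 13.3). Placed Y calls, with a median of 8.76 and 4.14% above that level, were lower than calls on the Y scaffolds, of which 12.8% were above it. X also had the highest median in replicate 1, at 9.39, and in replicate 2, at 11.9. The median on X or Y was only 7.60 in replicate 1. There the shares above the main chromosomes' median were closer, 24.5% on X, 28.2% on 3CEN and 22.0% on unknown scaffolds. In replicate 2 they were 45.3%, 34.0% and 27.9%.

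By the DNA they cover, 539 of the 2802 unplaced conservative ranked calls (19.2%, 17.8 to 20.7) lay on the long repeat, 286 (10.2%, 9.14 to 11.4) on the short repeat, 1530 (54.6%) resembled an annotated transposable element and 447 had none of these. Of the known bases of all unplaced scaffolds, the long repeat made up 12.3%, the short repeat 4.90% and transposon-like DNA 60.4%. The share of calls on transposon-like DNA was thus below its share of bases. The long repeat held 441 calls on X scaffolds, 91 on scaffolds of unknown chromosome and 7 on 3CEN. All 286 calls on the short repeat were on 3CEN scaffolds. Per 100 kb of their own bases, the short repeat held 106.3 calls and transposon-like DNA 46.1. The word that defines the short repeat was picked from these same calls, so its density is a description only. The long repeat held 88.0 on the X scaffolds, and transposon-like DNA there held 87.7. In replicate 1 these densities were 45.1 and 46.8, and in replicate 2 they were 90.2 and 66.3. DNA on the main chromosomes that matched the repeats held fewer conservative ranked calls per 100 kb. Its densities were 64.4 for the short and 55.0 for the long repeat. The matches to the long repeat there are more diverged from the unit than those on X scaffolds, so unlike copies are compared.

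Calls on the long repeat had the highest median signal of the 4 kinds of DNA in each of these ranked lists. The unit that defines this repeat was taken from the strongest unplaced call of the conservative thresholded list. That choice can favour the repeat, so its rank is a description and not a test. Their median was 16.9 in the conservative ranked list, 10.6 in replicate 1 and 14.0 in replicate 2. The short repeat had 13.8, 9.35 and 10.5 in the same lists, and transposon-like calls had 10.2, 7.97 and 8.74. In replicate 2, 54.3% of long-repeat calls (50.2 to 58.3) lay above the main chromosomes' median of 13.1, and in replicate 1, 32.3% (27.2 to 37.9) lay above that of 13.9. The long repeat was also the kind of DNA with the largest excess of calls in replicate 2, with 584 there and 294 in replicate 1, a ratio of 1.99. The ratio was 1.28 for the short repeat, 1.60 for transposon-like DNA and 1.70 for the rest. On the main chromosomes, the diverged copies of the long repeat had 168 calls in replicate 2 and 127 in replicate 1. Their ratio of 1.32 was below that of the unplaced copies. Copies of the short repeat there had 85 and 58, a ratio of 1.47, above that of the unplaced copies. Median signals on main-chromosome copies of the long repeat were 15.6 (conservative ranked list), 11.5 (replicate 1) and 11.3 (replicate 2). Those on copies of the short repeat were 15.5, 11.0 and 10.4. In replicate 1 both were above the unplaced medians of 10.6 and 9.35.

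**Figure D2:**
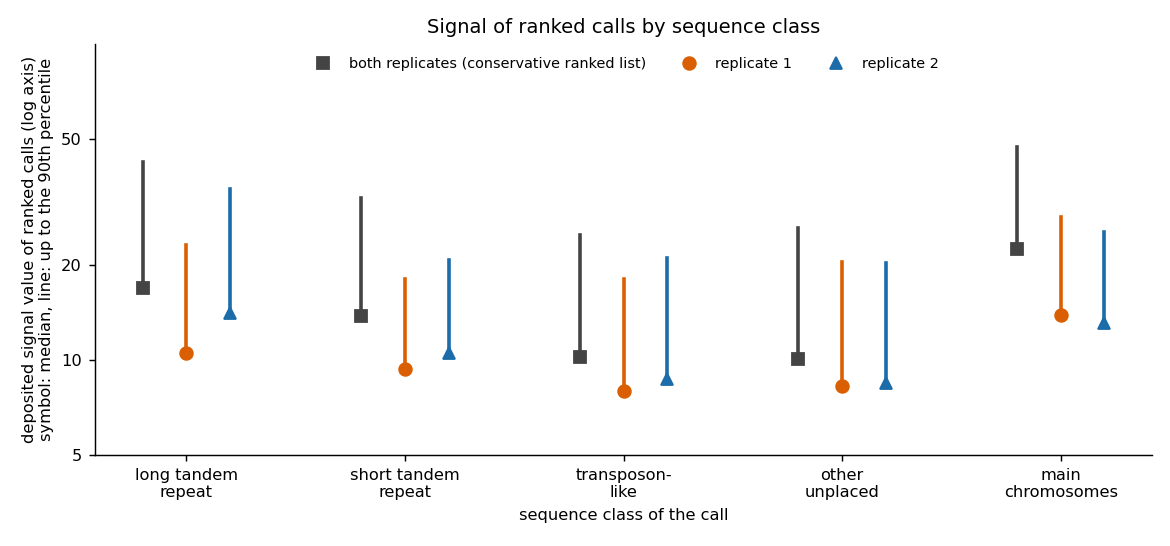
Deposited signal of ranked calls (vertical log axis) for the 4 kinds of unplaced DNA and, at the right, the main chromosomes. The symbol is the median and the line ends at the 90th percentile, for the conservative ranked list, replicate 1 and replicate 2. The long repeat stands highest among the unplaced kinds, and in replicate 2 its median of 14.0 is above the main chromosomes' 13.1.

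Summits on the long repeat lay in all parts of the unit. With the unit cut into 6 equal parts, the shares of 536 conservative summits that could be placed in it were between 13.4 and 19.0%. In replicate 1 they were between 13.9 and 19.4%, and in replicate 2 between 14.1 and 19.6%. The part with the most summits was the second in the conservative list, the third in replicate 1 and the first in replicate 2.

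The 4 thresholded lists hold few unplaced calls, namely 3 of 2796 in the conservative list (0.107%, 0.0365 to 0.315), 11 of 3369 in the second list (0.327%), 1 of 2555 in replicate 1 (0.0391%) and 21 of 1758 in replicate 2 (1.19%, 0.783 to 1.82). Of all ranked calls, 1.84% were also thresholded in the conservative list, 2.15% in the second list, 1.96% in replicate 1 and 1.28% in replicate 2. Of the unplaced ranked calls the shares were 0.107%, 0.386%, 0.0796% and 1.00%. The unplaced share was below the share of all calls in each list, and in replicate 2 its interval of 0.658 to 1.53% included that share. By score alone, before calls off the X scaffolds were left out, replicate 2 gave the other direction. Replicate 2 alone gave 21 unplaced calls and replicate 1 alone gave 1, so the count in a single replicate rests on which one is read.

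Joined over the 4 lists, the thresholded unplaced calls make 25 loci on 25 scaffolds, and all 25 scaffolds are assigned to the X. They are between 1028 and 33320 bp long, with a median of 1818 bp, and none carries an annotated gene. Of the 25 loci, 21 lie on the long repeat. In the conservative list 2 of 3 did, in the second 9 of 11, in replicate 1 the only 1, and in replicate 2 18 of 21. Among all ranked calls on X scaffolds the long repeat took 55.5% in the conservative list (52.0 to 58.9), 56.8% in the second, 55.4% in replicate 1 and 62.4% in replicate 2 (58.8 to 65.9). The median GC content of the loci was 30.2%. Replicate 2's thresholded list holds 21 of the 25 loci, and 14 are in no other thresholded list, while replicate 1's list holds 1. The choice of loci thus favours replicate 2, and the values by replicate describe the loci only and are no evidence of a difference between replicates. Replicate 2 called all 25 among its ranked calls and replicate 1 called 13.

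The locus on chrX_DS484669v1_random, at bases 1 to 299, was thresholded in all 4 lists. Its signal was 53.4 in replicate 1, 63.8 in replicate 2 and 117 in the conservative list. On chrX_DS484580v1_random, bases 535 to 934, the signals were 46.5, 73.5 and 94.7 in the same order, and 3 lists thresholded it. Both loci lie on the long repeat and were strong in both replicates. The repeat on chrX_DS484609v1_random, bases 1 to 390, was uneven, with 28.0 in replicate 1 and 105.1 in replicate 2, and its score was 69 in the conservative ranked list and 1000 in the second. On chrX_DS484690v1_random the signals were 9.34 in replicate 1 and 70.8 in replicate 2. On chrX_DS485898v1_random and chrX_DS483969v1_random replicate 1 had no ranked call, and replicate 2 had 80.1 and 70.9. Of the 4 loci that are not in replicate 2's thresholded list, all were called in both replicates, and replicate 2 was the higher at 3.

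**Figure D3:**
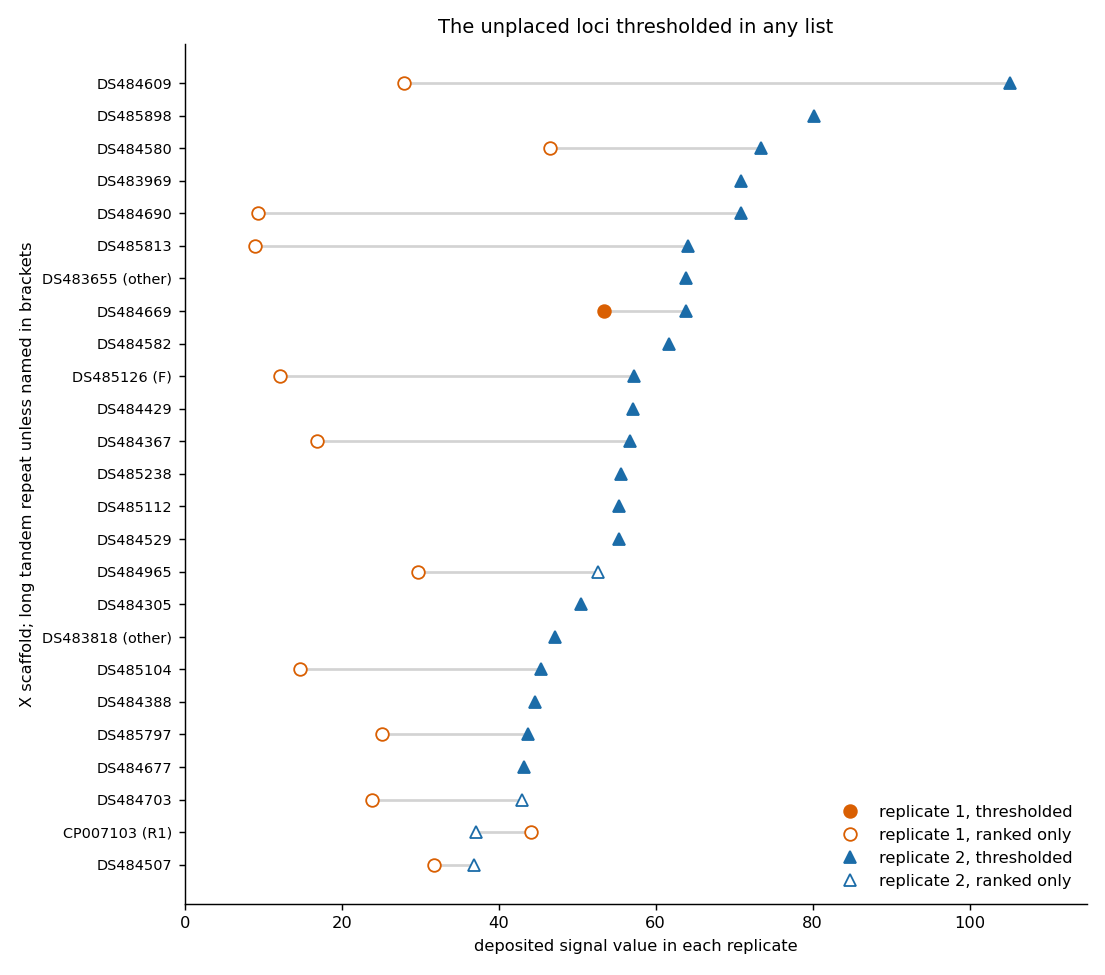
Signal in each replicate (horizontal axis) of the 25 unplaced loci thresholded in any list, 1 row per locus, marked by the middle part of the scaffold name. Filled symbols were thresholded in that replicate, and open symbols were ranked only. The rows include 14 that passed in replicate 2 alone, so the choice of rows favours replicate 2, which has a symbol on all 25, against 13 for replicate 1.

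The other 4 loci are not on the long repeat. The 1 in the conservative list, at bases 32239 to 32638 of chrX_CP007103v1_random, has a GC content of 55.5% and resembles R1, a retrotransposon that inserts into ribosomal RNA genes. Its signals were 44.1 in replicate 1, 37.1 in replicate 2 and 85.6 in the conservative list. It was higher in replicate 1. The locus on chrX_DS485126v1_random resembles F, a retrotransposon without long terminal repeats, and had 12.1 in replicate 1 and 57.3 in replicate 2. The loci on chrX_DS483655v1_random, with 63.9, and chrX_DS483818v1_random, with 47.1, matched neither repeat and no annotated element over 50% of the call, and only replicate 2 called them. The next line gives the middle 120 bases of the R1-like locus, as the only conservative call outside the long repeat.
chrX_CP007103v1_random:32378-32497, strand +: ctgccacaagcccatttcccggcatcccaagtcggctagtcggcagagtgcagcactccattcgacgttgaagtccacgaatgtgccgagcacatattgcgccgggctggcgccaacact
Its base composition sets it apart from the long repeat, whose thresholded loci had a median GC content of 29.9%.

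A high score was reached on other scaffolds as well. The lowest score in each thresholded list was 830. Of all ranked calls, 1.9% had at least that score in the conservative list, 2.23% in the second list, 2.03% in replicate 1 and 1.33% in replicate 2. Of the unplaced ranked calls, 11 of 2802 did in the conservative list (0.393%, 0.219 to 0.702) and 2 of 1257 in replicate 1 (0.159%). In replicate 2, 41 of 2092 unplaced calls did, 1.96% (1.45 to 2.65), above the 1.32% (1.26 to 1.39) of the main chromosomes, whereas the share kept in the thresholded list was below. Among unplaced ranked calls of at least that score in the conservative ranked list, 3 of 3 on X scaffolds were thresholded and 0 of 8 elsewhere. In the second list these counts were 11 of 11 and 0 of 14, in replicate 1 they were 1 of 1 and 0 of 1, and in replicate 2 they were 21 of 21 and 0 of 20. On the main chromosomes 2793 of 2874 such calls were thresholded in the conservative list and 1737 of 1787 in replicate 2. The calls not kept include the second strongest unplaced call, on a Y scaffold with a score of 973 in the conservative ranked list. Most of those not kept in that list were transposon-like, as were 54.6% of all its unplaced ranked calls. They resembled 1360, R1, Dm88, TART-C or Doc2, with overlapping R1-like rows on 1 scaffold. The rest lay on the long repeat, on scaffolds of unknown chromosome. The step that left them out is unknown from the labels and lists.

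**Figure D4:**
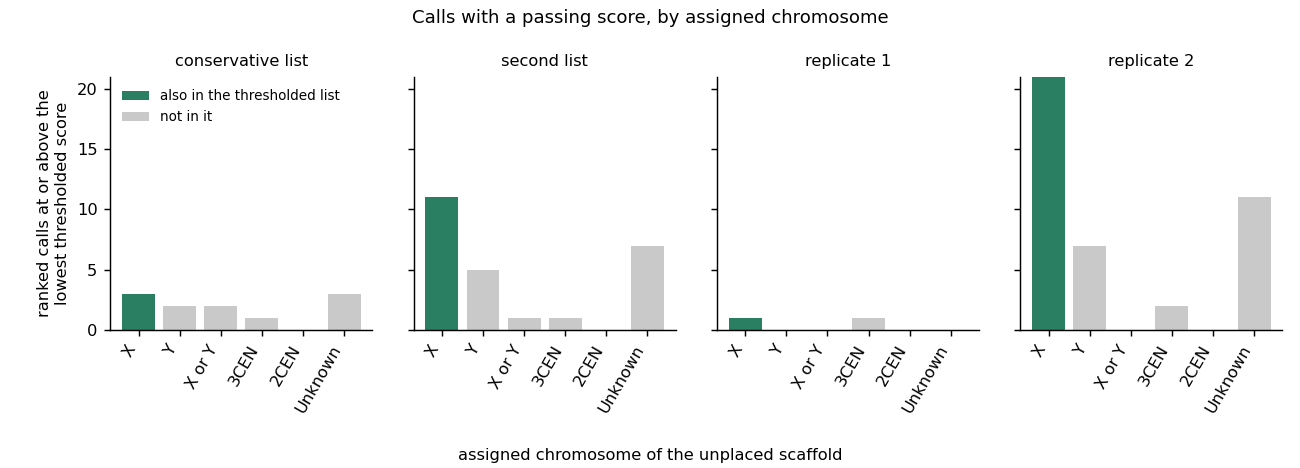
Unplaced ranked calls with at least the lowest thresholded score (vertical axis) by assigned chromosome, 1 panel per list. Green calls are also in the thresholded list and grey ones are not. The X bars are all green, up to 21 in replicate 2, and the bars of the other groups are all grey.

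The strongest unplaced call of the conservative ranked list was on a Y scaffold, chrY_DS485048v1_random, at bases 642 to 1041. Its signal was 32.0 in replicate 1, 112.5 in replicate 2 and 146.3 in the conservative ranked list, where its score of 790 was under the lowest thresholded score, while its score in the second ranked list was 1000. Its DNA resembles gypsy12, a retrotransposon with long terminal repeats, and the middle 120 bases of the call follow.
chrY_DS485048v1_random:782-901, strand +: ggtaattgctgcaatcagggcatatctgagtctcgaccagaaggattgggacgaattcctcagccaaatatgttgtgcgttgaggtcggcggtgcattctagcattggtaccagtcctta
The next, on chrY_DS485359v1_random, resembles the DNA transposon 1360 and had 37.6 in replicate 1, 89.6 in replicate 2 and 124.1 in the conservative list. The call on chrUn_DS484467v1, assigned to 3CEN and resembling the retrotransposon Dm88, had 60.4 in replicate 1, 34.8 in replicate 2 and 96.7 in the conservative list, and was the strongest unplaced call of replicate 1. On chrUn_DS484486v1, of unknown chromosome, the long repeat gave 33.2, 57.6 and 106.2 in the same order. On chrUn_DS484010v1 a G2-like call gave 26.6, 79.1 and 104.9. Of the 10 strongest unplaced calls of the conservative ranked list, 9 were higher in replicate 2 and that on 3CEN was higher in replicate 1. Of the 10 strongest in replicate 1, 6 were higher in replicate 1, among them the long repeat on chrUn_DS483949v1 with 47.1 in replicate 1 and 38.4 in replicate 2. Which replicate leads therefore depends on the list from which the strongest calls are taken.

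R1-like DNA held more calls than any other transposon family, 270 of the 1530, with 251 on X scaffolds. Replicate 1 had 156 R1-like calls and replicate 2 had 209, with medians of 8.25 and 8.47 and a conservative median of 12.3. The next families were gypsy12 with 92 calls, of which 52 were on Y scaffolds, then HeT-A with 70, GATE with 69, 1360 with 68 and TART-A with 67. HeT-A and TART-A belong to the retrotransposons that maintain fly telomeres, and 24 and 45 of their calls were on Y scaffolds. Calls fell on 96 families, of 155 annotated on the main chromosomes and the scaffolds together. How much DNA of each family the scaffolds hold was not computed. The counts therefore do not compare families per base and are a description only. The 12 leading families all had more calls in replicate 2 than in replicate 1, with 21 and 17 for rover, 64 and 33 for gypsy12, and 23 and 7 for accord2.

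**Figure D5:**
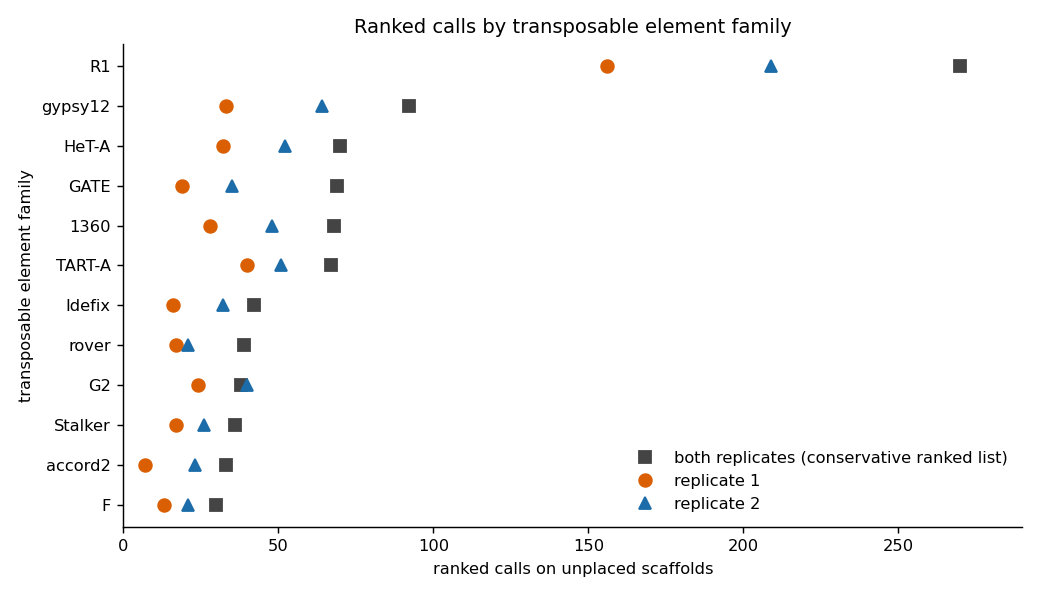
Ranked calls on unplaced scaffolds (horizontal axis) for the 12 transposable element families with the most, with 1 symbol per list. R1 leads with 270 in the conservative ranked list, and replicate 2 is right of replicate 1 in each of the 12 rows.

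The ribosomal DNA scaffold, chrUn_CP007120v1, is assigned to X or Y, since both carry ribosomal RNA genes, and is 76973 bp long. It held 26 calls in the conservative ranked list, 25 in replicate 1 and 15 in replicate 2, and so had more in replicate 1. Their medians were 15.4, 6.98 and 16.2. Of the 26, 20 were transposon-like, 7 of them R1-like and 2 like R2, another element of ribosomal RNA genes. Only 1 summit lay within an annotated pre-rRNA gene, and it had a signal of 14.3. Another 4 lay within the pseudogene 28SrRNA-Psi:CR40596, with a signal of up to 36.1, and 3 within 28SrRNA-Psi:CR45851, with up to 30.1. The strongest call, at bases 53114 to 53513, was R1-like, with 52.2 in replicate 1, 65.2 in replicate 2 and 106.0 in the conservative list. Its summit was 1790 bp from pre-rRNA:CR45846, the nearest annotated gene.

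Few other genes lay under the calls. The annotation places 36 genes on the unplaced scaffolds with a ranked call, 14 of them rRNA genes, and 10 of the 36 held a conservative ranked summit. Among the 10 are pre-rRNA:CR45845 and 28SrRNA:CR45837, which lies inside it, and the same summit is counted for both. The share of main-chromosome genes with a summit was not computed, so the count is a description only. On chrUn_CP007081v1, klhl10, a gene of the kelch-like family that acts in sperm development, held 6 summits in the conservative list. It held 2 in replicate 1 and 15 in replicate 2, and its highest signal was 31.6 in the conservative list. This long gene spans bases 53442 to 85529 of the 88768-bp scaffold. The whole scaffold held 43 conservative ranked calls, 25 in replicate 1 and 43 in replicate 2. The non-coding gene lncRNA:CR40719 on chrY_DS485938v1_random held 1 summit in each of these lists, with 40.2 in the conservative list, 20.6 in replicate 1 and 18.8 in replicate 2. On chrUn_DS483646v1, CG41561 held 3 conservative summits of at most 14.7. These genes' signals were below the lowest thresholded unplaced signal of the conservative list, 85.6.

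The calls were spread over many scaffolds. Of the 1003 scaffolds with a conservative ranked call, 399 had 1 call and 33 had 10 or more. The 10 scaffolds with the most held 315 calls, 11.2% of the total on 10.9% of the known bases. The largest number, 43, was shared by chrUn_CP007081v1, of unknown chromosome, and chrY_CP007108v1_random. On the Y scaffold chrY_CP007109v1_random, 38 calls had a median signal of 5.87, and replicate 1 held 9 and replicate 2 held 14. On chrUn_CP007080v1, 31 calls had a median of 6.68, with 1 in replicate 1 and 13 in replicate 2. On chrX_CP007103v1_random, which leads the X scaffolds, all 29 calls were transposon-like, and replicate 1 held 14 and replicate 2 held 18. The scaffold with the most calls on 3CEN was chrUn_CP007074v1 with 29, and on 2CEN it was chrUn_DS483707v1 with 18. Among the X scaffolds, 291 consist of the long repeat over at least 50% of their bases and 217 of those had a conservative ranked call, with 152 in replicate 1 and 227 in replicate 2. Of the 155 X scaffolds with less of it, 118 had a conservative ranked call, 88 a call in replicate 1 and 105 in replicate 2.

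Replicates overlapped less on unplaced scaffolds than on the main chromosomes together, but more than on the placed Y and, for replicate 1 calls, chromosome 4. Of the 1257 replicate 1 calls on unplaced scaffolds, 826 shared at least 1 bp with a replicate 2 call, 65.7% (63.0 to 68.3), against 77.4% (77.2 to 77.6) on the main chromosomes. Of the 2092 replicate 2 calls, 41.8% (39.7 to 44.0) shared a base with replicate 1, against 73.3% on the main chromosomes. On the placed Y these shares were 47.3% (40.8 to 53.9) and 27.3% (22.9 to 32.3), and on chromosome 4 they were 46.0% and 75.1%. The share of replicate 1 calls found again was 76.2% on X, 74.1% on 3CEN, 58.8% on Y and 53.8% on scaffolds of unknown chromosome. By DNA it was 79.9% on the long repeat, 75.7% on the short repeat and 60.2% on transposon-like calls. Replicate 2 had 98.5 calls per 100 kb on the main chromosomes, 38.1 on unplaced scaffolds and 10.1 on the placed Y. Where calls are denser, more of them meet by position alone. The shares were not adjusted for density, so they are a description and do not rank reproducibility. In the 826 pairs, replicate 1 had the higher signal in 29.9%, against 44.1% on the main chromosomes, and the median ratio of replicate 1 to replicate 2 was 0.711, against 0.910. On the placed Y that ratio was 0.78. On the long repeat the ratio was 0.626. Across the 826 pairs Spearman's rho was 0.41, a description over calls that share libraries and often near-identical DNA.

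The DNA under these calls is rarely unique. Of 2775 windows of 101 bp centred on unplaced conservative ranked summits, 79.6% (78.1 to 81.1) had at least 1 more place in the assembly at 95% identity or more over at least 95% of the window, against 4.09% (3.44 to 4.86) of 2981 windows sampled from the main chromosomes' ranked calls. The median number of places was 480 on the long repeat, 43 on the short repeat and 11 on transposon-like DNA, against 1 on the main chromosomes. The part of such copies in the signals and in the difference between replicates was not tested. In addition, 302 of the 2802 calls, 10.8%, touched the end of their scaffold. Overlapping rows were common, and the 2802 rows merge into 2012 intervals.

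No motif of nerfin-2 was searched. The palindromic word TATCGATA, the binding motif of the promoter factor DREF, was in 4 of 2802 unplaced summit windows, 0.143% (0.0555 to 0.367), and in 0.597% of the main chromosomes' ranked windows. Of the main chromosomes' thresholded windows 18.1% held it, and of the 25 unplaced thresholded loci 0 did, with an interval of up to 13.3%. None of the 539 windows on the long repeat held it, with an interval of up to 0.708%. Windows were 101 bp around each summit, a match is a description, and no match says only that these letters are not in that window.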

How the data were processed

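Chromatin immunoprecipitation sequencing of 2 replicates of 1 group was read from 8 peak lists on dm6, per the labels. What aligner and caller made them was not given in the sources used here. Signal is used as the authors deposited it, one value per call, without rescaling. The score, a whole number up to 1000 deposited by the authors, rises as the irreproducible discovery rate falls, and the ranked lists also hold a deposited −log10 of that rate. Each thresholded call was found in its ranked list. Another 16 columns of the authors' ranked lists hold per-sample values with no header and were left unused. Scaffold names were matched to RefSeq by constant steps between accession numbers, with a change of step within the CP names. The steps were chosen so that scaffolds agreed in assigned chromosome and had no call beyond their end. That all 1160 scaffolds in the lists agreed is therefore no independent check. Under the next best steps 463 agreed. On 253 scaffolds the last call ended at the scaffold end. The change within the CP names was placed for fewest summits in gaps. Of 6397 summits 9 fell in gaps, all on DS names, whose step was not chosen by gaps.

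A call belongs to the long repeat where 50% of it matched the 359-bp unit (BLAST+ 2.17.0, E-value 1e-05). It belongs to the short repeat where 50% of it lay in spans of an 11-base word with starts up to 100 bp apart. It counts as transposon-like where 50% of it matched annotated elements (Ensembl release 115) at 80% identity. Of those, 21 longer than 15000 bp were left out, elements nested in others were masked, and R1A1 was counted as R1. Shares have 95% Wilson intervals from SciPy 1.17.1. The counting functions were tested on simulated data. Scaffolds and calls were named by a rule of most calls, highest signals and thresholded calls. The members, repeats and lists were chosen with earlier results of these data known. Calls are not replicates, so no p-value was computed.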

Additional observations from a re-analysis of the deposited data

How the results depend on the processing

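With the second list in place of the conservative one, the share of thresholded calls on unplaced scaffolds was 0.327%, and among the 500 strongest conservative calls it was 0%. With each replicate alone, that share was between 0.0391 and 1.19%, the share of ranked calls between 0.966 and 1.53%, the median signal between 8.57 and 9.77, and the calls per 100 kb between 22.9 and 38.1. Merging overlapping rows gave 2.04% of ranked intervals and 36.6 intervals per 100 kb. Without scaffolds under 10 kb the median signal was 9.89 and the density 37.7 per 100 kb. The overlap of replicate 1 with replicate 2 was 54.0% when 50% of both calls had to be shared, 43.0% for summits within 100 bp, and 100% in the thresholded lists, which is 1 call of 1.

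Chosen after seeing the data, the classes of DNA were also tried. With each replicate alone the long repeat took between 23.4 and 27.9% of unplaced calls, the short repeat between 9.27 and 12.1%, and transposon-like DNA between 47.8 and 49.8%, or 42.9% in the conservative list at 90% identity. Of 32 alternatives, 10 stayed within the interval or the replicates' spread of the reported value. Among these 10 are the thresholded share of 0.0391% in replicate 1 and the short repeat's 9.27% in replicate 2. No call lay on the mitochondrial genome. No paired analysis was possible because the series has a single group. Depth is unknown from the lists, and signals were not rescaled between them. The causes of the changes were not tested.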
